A study of Mus musculus with 18 samples.

Results

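Blood clotting genes were followed across epididymal fat and liver of mice on 3 diets: 10 genes of the 23474 in the table, namely the factors F2, F3, F5, F7, F9, F10, F11, F12 and F13a1 and the inhibitor Tfpi. They were chosen by gene symbol around F7, which had itself been selected on its measured rise in fat on a high-fat diet. The fat values of F7, the contrasts of F10 with ND fat, and HFD against ND fat for all 10 genes are therefore described without a test. Male C57BL/6J mice, an inbred laboratory strain, were 17 weeks old when sampled and had been on their diets for 12 weeks, from 5 weeks of age. The GT group ate the high-fat diet with 0.25% (w/w) of an ethanol extract of green tea, the HFD group ate the high-fat diet alone, and the ND group ate a normal diet. Each diet had 10 mice, 30 in all, and RNA was sequenced as 3 libraries per diet in each of 2 tissues, 18 libraries in all. Whether the 3 libraries of a group came from 3 separate mice is not stated in the labels, so the p-values given here cover the spread among libraries, part of which may be technical.

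Clotting starts when tissue factor (F3), a membrane protein outside the bloodstream, binds circulating factor VII (F7). The complex activates factor X (F10), which with its cofactor factor V (F5) turns prothrombin (F2) into thrombin. Thrombin makes fibrin, which factor XIII, whose catalytic subunit is F13a1, then cross-links. Factors IX, XI and XII (F9, F11, F12) belong to the intrinsic arm that amplifies the cascade, and Tfpi blocks the complex of tissue factor and factor VII. Most of the circulating factors are made by hepatocytes, while F3, F13a1 and Tfpi are best known from cells outside the hepatocyte, such as stromal cells, macrophages and endothelium.

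F7 and F10 lie next to each other on mouse chromosome 8, and the 250 bases before their starts are shown because these were the members whose fat levels differed between diets together. The sequences are from RefSeq (GRCm38.p6), F7 at chr8:13025784-13026033 and F10 at chr8:13037058-13037307, both on the plus strand. Capitals mark the motifs that are described after them.
F7: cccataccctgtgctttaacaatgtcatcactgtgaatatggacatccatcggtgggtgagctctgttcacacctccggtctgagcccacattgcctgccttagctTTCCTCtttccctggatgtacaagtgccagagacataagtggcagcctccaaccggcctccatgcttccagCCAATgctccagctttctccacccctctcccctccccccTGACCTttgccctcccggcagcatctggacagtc
F10: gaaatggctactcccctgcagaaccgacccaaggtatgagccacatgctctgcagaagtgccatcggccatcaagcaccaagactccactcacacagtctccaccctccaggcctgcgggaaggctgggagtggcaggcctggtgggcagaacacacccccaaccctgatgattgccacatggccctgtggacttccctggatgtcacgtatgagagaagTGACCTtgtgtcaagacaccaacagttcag
The nuclear receptor half-site TGACCT, searched on both strands as TGACCT or AGGTCA, lay 34 bases before the start of F7 and 30 bases before the start of F10. It also occurred in the promoters of F2 and F5, and in 14.0% of the 32851 mouse promoters of this length. F7 alone of the pair held a CCAAT box (CCAAT or ATTGG), 73 bases before its start, a motif found in 33.8% of promoters and also in those of F12 and F13a1. It also held the ETS factor core GAGGAA in reverse, as TTCCTC, 144 bases before its start, as did 23.3% of promoters on one strand or the other. Neither held the GC box GGGCGG (32.7% of promoters), the TATA box TATAAA (12.4%) or the AP-1 site TGANTCA (6.75%). These matches describe letters and do not show binding.

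One fat library stood apart. Fat ND 1 held testis transcripts at a summed 102316 FPKM over 10 markers and epididymal transcripts at 20818 FPKM over 8, while its 6 adipocyte markers summed to 3778 FPKM, against 10296 and 11376 FPKM in the other ND fat libraries. Among the other 8 fat libraries, ND 3 held 3149.8 FPKM and HFD 1 held 2155 FPKM of the testis markers. The rest held 17.6 to 175 FPKM, and fat HFD 2 held 1275 FPKM of the epididymal markers. The members' values in ND 1 are therefore given beside the others, and fits that leave it out are named as such. ND 3 and HFD 1 stay in those fits, so leaving out ND 1 does not remove all testis transcripts. The defining adipocyte markers all exceeded 1 FPKM in every fat library, and 6 of 7 hepatocyte markers did so in every liver library. The exception was Alb, listed at 0 in liver HFD 3, which can be a failed estimate. Liver HFD 2 and liver GT 3 held most skeletal muscle transcripts, with sums of 71.9 and 32.0 FPKM over 5 markers, and these are called muscle-marked. Liver HFD 3 held 14.1 FPKM and the other 6 livers at most 3.20 FPKM. FPKM totals ran from 527904 to 608819 in the other 8 fat libraries, and from 680168 to 930139 in liver.

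In fat 5 of the 10 genes were at or close to 0, and in liver F13a1 was. FPKM, fragments scaled by transcript length and by the mapped fragments of the library, is a level per length, so levels of different genes can be compared. Over the 8 fat libraries without ND 1, median levels ran in the order F13a1 at 36.9 FPKM, F7 at 31.0, F3 at 28.2, Tfpi at 9.68 and F10 at 8.80. The ranges of F13a1, F7 and F3 overlapped over these libraries, as did those of Tfpi and F10, while every F3 library lay above every Tfpi library. Compared within each of the 8 libraries, F13a1 stood above F3. F7 and F10 spanned the widest ranges and were near 0 in ND. The other 5 genes were at or close to 0 in fat: no library exceeded 0.278 FPKM for F2, 0.336 for F9, 0.485 for F11, 0.825 for F12 or 1.18 for F5. F9 was listed at 0 in all 3 ND fat libraries, and F12 in all 3 HFD fat libraries. F9 stood at 0.281, 0.302 and 0.336 FPKM in HFD fat and at 0.167, 0.217 and 0.0815 FPKM in GT fat. F5 and F11 were highest in ND 1 and ND 3, at 1.18 and 1.18 FPKM for F5 and at 0.485 and 0.456 FPKM for F11.

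In liver the order was different. Median levels over 9 libraries were 770.2 FPKM for F2, 185 for F12, 163 for F10, 73.4 for F9, 62.3 for F5, 36.4 for F7, 18.3 for F11, 2.52 for Tfpi, 2.45 for F3 and 0.0768 for F13a1. The ranges of neighbours over the 9 libraries overlapped in this order except at 4 steps. These were F2 above F12, F10 above F9, F11 above Tfpi, and F3 above F13a1. Compared within each library, F12 also stood above F10, F5 above F7 and F7 above F11 in all 9. F13a1 reached at most 0.131 FPKM in any liver library, so the cross-linking enzyme and the thrombin precursor were found in opposite tissues. F7 was found in both tissues on the high-fat diets. It averaged 43.9 ± 15.2 FPKM in HFD fat and 29.2 ± 4.43 FPKM in HFD liver (SD, n = 3 each), with overlapping libraries, whereas F10 averaged 9.50 ± 1.28 FPKM in HFD fat and 156 ± 14.1 FPKM in HFD liver. Fat and liver were separate sets of libraries with different FPKM totals, so these levels were set side by side without a test.

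**Figure D1:**
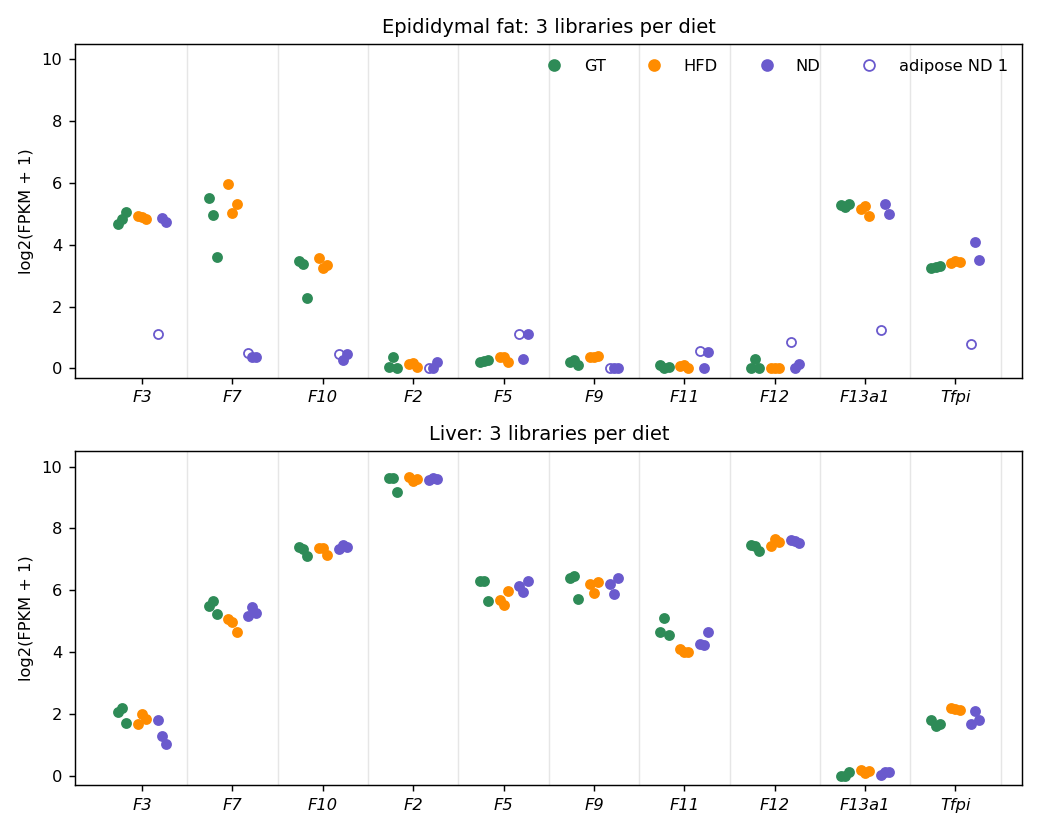
Level of each clotting gene on the log2(FPKM + 1) scale in every library of epididymal fat (upper panel) and liver (lower panel), with 3 libraries each for GT, HFD and ND from left to right and fat ND 1 as an open symbol. F7 and F10 are near 0 in ND fat and high in GT and HFD fat, while F2, F5, F9, F11 and F12 are found in liver and F13a1 in fat.

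F7, the protease that starts the extrinsic cascade, was found in fat on both high-fat diets and was close to 0 on the normal diet. It stood at 44.5, 30.1 and 11.3 FPKM in GT fat, at 61.0, 32.0 and 38.9 FPKM in HFD fat, and at 0.403, 0.285 and 0.297 FPKM in ND fat. The lowest GT library was thus far above the highest ND library, and ND 1 was no exception among the ND libraries. Mean levels were 134-fold higher in HFD than in ND fat, and 151-fold higher without ND 1. They were 87.2-fold higher in GT than in ND fat, and 98.4-fold higher without ND 1. On the log2(FPKM + 1) scale, which understates changes of low genes, F7 differed by 5.03 ± 0.47 between HFD and ND and by 4.29 ± 0.47 between GT and ND (limma, ± SE). Between GT and HFD fat the libraries overlapped, the change was −0.74 ± 0.47, and the lowest F7 of the 6 was in GT 3.

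F10, the factor that the F7 complex activates, was high in the same libraries, at a lower level. It stood at 10.1, 9.33 and 3.87 FPKM in GT fat, at 10.9, 8.41 and 9.18 FPKM in HFD fat, and at 0.368, 0.206 and 0.390 FPKM in ND fat. Again every GT and HFD library lay above every ND library, and GT 3 was the lowest of the 6. Its mean was 29.5-fold higher in HFD than in ND fat (log2 change 2.99 ± 0.34) and 24.1-fold higher in GT than in ND fat (log2 change 2.64 ± 0.34). Without ND 1 these changes were 3.01 and 2.67. The contrast of GT with ND shares its ND libraries with the contrast that chose F7, and F10 was above the low-value filter only on the high-fat diets, so it is given with no test. Between GT and HFD fat F10 did not pass the test, at −0.34 ± 0.34 with all 9 libraries (adjusted p = 1.0) and −0.34 ± 0.30 without ND 1 (adjusted p = 0.533, 95% interval −1.03 to 0.34).

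Of the 10 members, 5 had at least 1 FPKM in 3 fat libraries and entered the fits in fat: F3, F7, F10, F13a1 and Tfpi. F7 and F10 passed this filter only through the GT and HFD libraries and so had to differ from ND. In HFD against ND fat F7 and F10 were called, where 5.65% of 13762 genes were called with all 9 libraries and 27.4% of 12859 without ND 1. In GT against ND fat the same 2 members were called, beside 0.639% of all genes with 9 libraries and 10.7% without ND 1. Since HFD against ND chose F7, and both genes had to differ from ND, nothing is read from either count. With the replicate number as a block in the 9 libraries, GT against ND called 3 genes and 0 members, instead of 88 genes. In GT against HFD fat none of F3, F10, F13a1 and Tfpi was called, and neither was any other gene with 9 libraries (0.0%), although 467 genes had an unadjusted p under 0.05. Without ND 1, 1.7% of genes and none of these members were called there. On simulated data the fit of all fat libraries recovered only 35% of genes changed by 2 on the log2 scale. Its lack of calls is therefore not read as a lack of change.

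**Figure D2:**
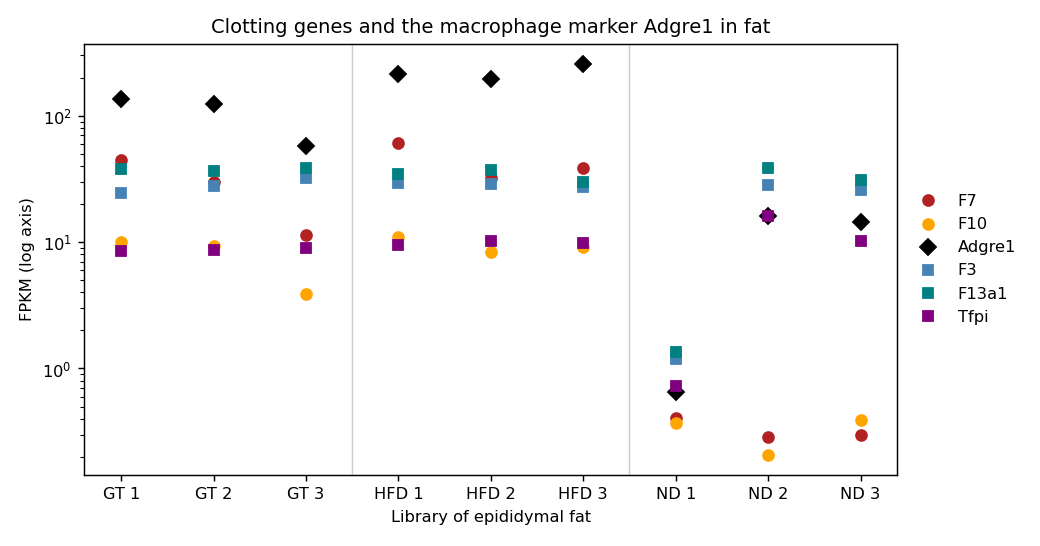
FPKM on a log axis of the 5 clotting genes found in fat and of the macrophage marker Adgre1, for each fat library of GT, HFD and ND from left to right. F7, F10 and Adgre1 are lowest in ND and, among the high-fat diets, lowest in GT 3, while F3 and F13a1 are level apart from ND 1.

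Tissue factor (F3), the receptor of factor VII, was level across the diets in fat. It stood at 24.3, 27.9 and 32.1 FPKM in GT fat, at 29.4, 29.1 and 27.5 FPKM in HFD fat, and at 1.19, 28.5 and 25.7 FPKM in ND fat. Apart from ND 1 all 8 libraries lay between 24.3 and 32.1 FPKM. The fitted difference between HFD and ND was 1.31 ± 0.89 with ND 1 and 0.08 ± 0.14 without it (95% interval −0.24 to 0.40). GT differed from HFD by −0.04 ± 0.13 (adjusted p = 0.883) and from ND by 0.04 (adjusted p = 0.857), both without ND 1. With ND 1 the GT difference from ND was 1.27 (adjusted p = 0.411).

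F13a1, the catalytic subunit of factor XIII and a gene known from macrophages and platelets, behaved in the same way. It stood at 38.2, 36.4 and 38.7 FPKM in GT fat, at 34.5, 37.3 and 29.7 FPKM in HFD fat, and at 1.35, 38.8 and 31.1 FPKM in ND fat. The diets overlapped. HFD differed from ND by 1.27 ± 0.95 with ND 1 and by −0.04 ± 0.14 without it (95% interval −0.37 to 0.29). GT differed from HFD by 0.16 ± 0.13 (adjusted p = 0.494) and from ND by 0.12 (adjusted p = 0.613) without ND 1, and from ND by 1.43 (adjusted p = 0.391) with it. The summed level of 6 platelet markers was 34.3 to 60.0 FPKM in GT fat, 65.7 to 84.2 FPKM in HFD fat and 34.2 to 48.1 FPKM in ND fat. Apart from ND 1, most of this sum was a single marker, Pf4, at 81.2, 61.6 and 76.2 FPKM in HFD fat. Gp9, Gp1ba and Gp6 reached at most 0.685 FPKM in any fat library, so the sum is not read as platelet content.

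Tfpi, the inhibitor of the tissue factor complex, was lower in all GT and HFD fat libraries than in ND 2 and ND 3. It stood at 8.56, 8.70 and 8.93 FPKM in GT fat, at 9.56, 10.1 and 9.80 FPKM in HFD fat, and at 0.724, 16.0 and 10.3 FPKM in ND fat. Without ND 1 the 3 diets did not overlap, ND being highest and GT lowest, and neither contrast of GT passed the test. The change was −0.36 ± 0.18 for HFD against ND, −0.51 ± 0.18 for GT against ND (adjusted p = 0.102) and −0.15 ± 0.16 for GT against HFD (adjusted p = 0.603). With ND 1 the sign of both ND contrasts turned, to 0.65 ± 0.74 for HFD and 0.49 for GT (adjusted p = 0.678). When ND 3 was left out as well, so that ND 2 stood alone, the GT contrast with ND was called (adjusted p = 0.0210), a fit in which ND 2, the library of highest Tfpi, is assumed to vary like the other diets. Summed endothelial markers were 276 to 319.7 FPKM in GT fat, 229.6 to 261 FPKM in HFD fat, and 228.9 and 264.9 FPKM in ND 2 and ND 3.

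**Figure D3:**
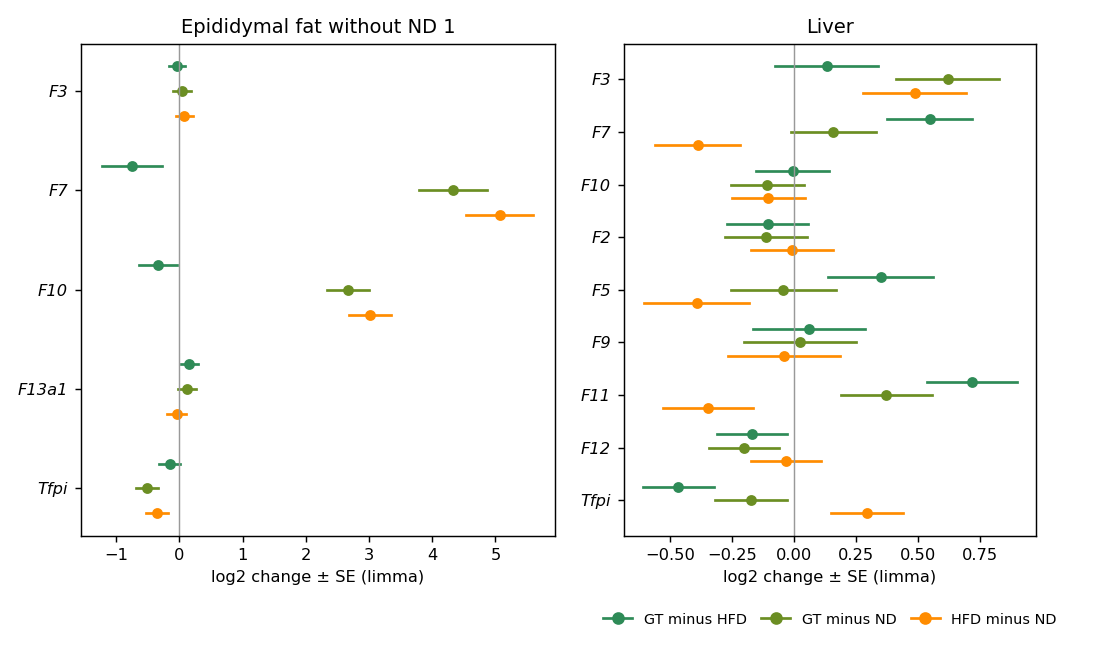
log2 change ± SE from limma on log2(FPKM + 1) for each fitted clotting gene, in fat without ND 1 (left, 5 genes) and liver (right, 9 genes), for GT minus HFD, GT minus ND and HFD minus ND. In fat only F7 and F10 lie far from 0, at 5.07 and 3.01 for HFD minus ND, and in liver all changes lie between −0.47 and 0.72.

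Macrophage markers moved with F7 and F10 in fat. The 10 listed markers summed to 1216 to 2674 FPKM in GT fat, 2922 to 4092 FPKM in HFD fat, and 444.6 and 572.2 FPKM in ND 2 and ND 3 (59.5 FPKM in ND 1). The general macrophage marker Adgre1 stood at 136, 125 and 57.4 FPKM in GT fat, at 213, 195 and 259 FPKM in HFD fat, and at 0.651, 16.0 and 14.3 FPKM in ND fat. As for F7 and F10, the lowest of the 6 high-fat libraries was GT 3. Without ND 1, 9 of the 10 markers rose in HFD against ND fat and 7 of 10 in GT against ND fat, while 0 of 10 changed in GT against HFD fat (limma), although 9 of 10 had an unadjusted p under 0.05 there. With ND 1 the counts were 7, 2 and 0. All 10 were above 1 FPKM in every fat library but ND 1. Most adipocyte markers ran the other way in HFD, but not in GT against ND fat. The 6 listed summed to 6545 to 10451 FPKM in GT fat and 4715 to 4750.1 FPKM in HFD fat. Without ND 1, 5 of 6 fell and 1, Lep, rose in HFD against ND fat, and 3 of 6 rose in GT against HFD fat. In GT against ND fat without ND 1, 1 rose and 1 fell, with a median change of −0.07. With ND 1, 1 of 6 fell and 0 rose in HFD against ND, and 0 changed in GT against HFD (limma, 2 at an unadjusted p under 0.05). With ND 1, 0 changed in GT against ND. The highest adipocyte sum of the 6 high-fat libraries was again in GT 3. Among the other lists in HFD against ND fat without ND 1, 4 of 5 mast cell markers rose, 2 of 5 erythrocyte markers fell and 3 of 6 mesothelial markers fell. With ND 1 these counts were 2, 1 and 0 (3 mesothelial markers at an unadjusted p under 0.05). The part of cell content in the levels of F7 and F10 was not tested, and in these bulk samples fewer cells of a type and less RNA per cell cannot be told apart.

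Markers of hepatocytes were close to 0 in fat. The 7 hepatocyte markers summed to 2.68 to 13.5 FPKM in GT fat, 9.18 to 11.8 FPKM in HFD fat and 7.50 to 10.1 FPKM in ND fat, against at least 59406 FPKM in every liver library. Albumin (Alb) stood at 2.17 to 3.50 FPKM in HFD fat and at 1.13, 8.40 and 5.05 FPKM in ND fat, and F2, the most abundant member in liver, reached at most 0.123 FPKM in HFD fat. Of the 3 hepatocyte markers tested in fat, 1 rose in HFD against ND without ND 1 and 0 with it: Apoa2, named after its values were seen, at 3.42, 4.94 and 3.49 FPKM in HFD fat and 5.61, 0.598 and 0.756 FPKM in ND fat. Like Apoa2, the listed markers Fabp1, Ahsg, Ttr and Apoa1 were higher in every HFD fat library than in ND 2 and ND 3. Most values of Fabp1, Ahsg, Ttr and Apoa1 were under 1 FPKM. ND 1 lay above every HFD library for Ttr and among them for Apoa1. Alb was lower in every HFD library than in ND 2 and ND 3, and Serpina1a overlapped. Alb made up most of the sum in ND 2 and ND 3, so the sum does not show these rises. The 4 Kupffer cell markers summed to 3.92 to 4.76 FPKM in HFD fat and 2.28 to 2.61 FPKM in ND fat. In GT fat the sum was 1.27 to 2.89 FPKM. Of the 2 tested in fat, 0 were called in HFD against ND (limma). Without ND 1 both had an unadjusted p under 0.05 there. Vsig4 stood at 2.37, 2.30 and 2.58 FPKM in HFD fat and at 0, 0.767 and 0.844 FPKM in ND fat. Timd4 was lower in every HFD library than in ND 2 and ND 3. Clec4f was listed at 0 in 8 of the 9 fat libraries and at 0.0248 FPKM in HFD 3.

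Across the 8 fat libraries without ND 1, F10 ranked 2 of 12858 genes in likeness to F7, with a Pearson correlation of log2(FPKM + 1) of 0.996. The 4 genes most like F7 were Pltp, F10, Egr2 and H2-DMb1, all between 0.995 and 0.996. Adgre1 ranked 222 at 0.975. The other members were not alike: F3 at 0.07, F13a1 at 0.01 and Tfpi at −0.70. These libraries share the step between ND and the high-fat diets. Over the 6 HFD and GT libraries alone F10 ranked 130 at 0.963, Adgre1 ranked 1444 at 0.843, and the 5 leading genes were Rem1, Mindy1, H2-M3, Coro1b and Timm8a1. All these values describe the libraries and are given with no p.

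The genes flanking F7 and F10 did not share their pattern in fat. Along chromosome 8 the order is Atp11a, Mcf2l, F7, F10, Proz and Pcid2. In HFD against ND fat without ND 1, Atp11a (a phospholipid flippase) changed by −0.56 ± 0.54 (adjusted p = 0.486), Mcf2l (a guanine nucleotide exchange factor) by −0.08 ± 0.35 (adjusted p = 0.883) and Pcid2 by −0.10 ± 0.17 (adjusted p = 0.688). With ND 1 the changes were −0.56, 0.40 and 0.46 (adjusted p = 0.474, 0.611 and 0.527). Proz, which encodes the anticoagulant protein Z, lies just beyond F10 and stayed between 0.0874 and 1.34 FPKM in fat, too low to be tested. In liver Proz was abundant, at 146, 145 and 98.4 FPKM in GT, 96.1, 71.7 and 87.1 FPKM in HFD, and 109, 125 and 131 FPKM in ND. Every HFD library of Proz lay below every GT and ND library, as for F7, but Proz did not pass the test for HFD against ND (−0.52 ± 0.19, adjusted p = 0.0813) or GT against HFD (0.59 ± 0.19, adjusted p = 0.0950). The liver levels of Atp11a and Pcid2 were lower in HFD than in ND by the test, by −0.75 ± 0.16 (adjusted p = 0.0123) and −0.75 ± 0.23 (adjusted p = 0.0464).

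**Figure D4:**
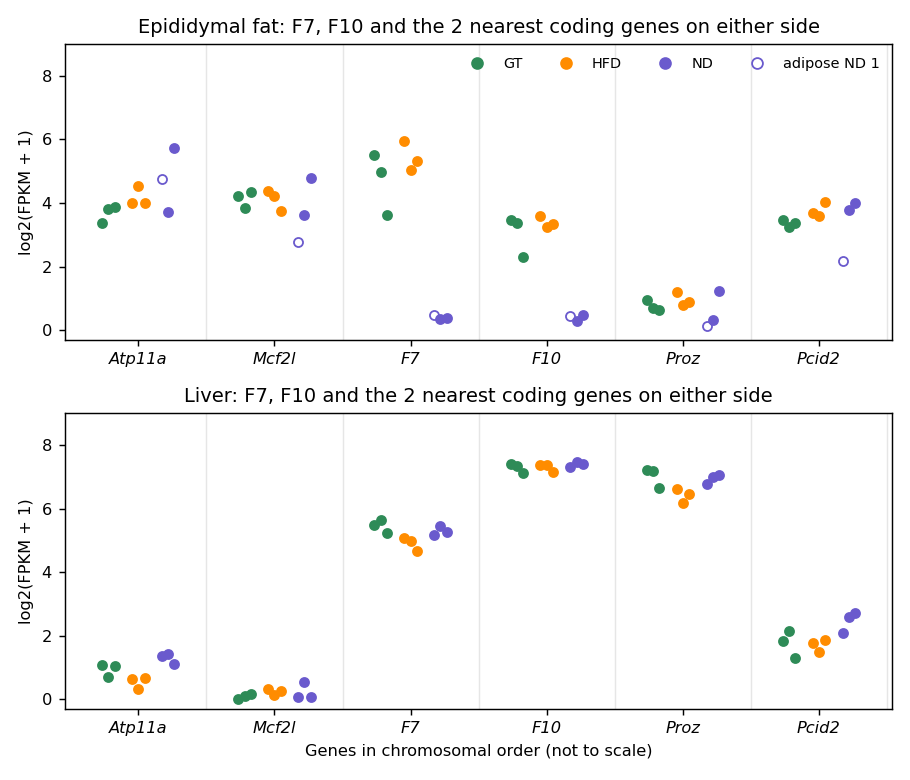
log2(FPKM + 1) of F7, F10 and the coding genes beside them on chromosome 8, in order along the chromosome and not to scale, for each library of fat (upper panel) and liver (lower panel), with GT, HFD and ND from left to right. In fat F7 and F10 differ between ND and both high-fat diets and the flanking genes do not follow, while Proz is high in liver together with both.

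In liver F7 was lowest in HFD. It stood at 43.8, 48.9 and 36.4 FPKM in GT liver, at 32.7, 30.6 and 24.2 FPKM in HFD liver, and at 35.1, 42.7 and 37.1 FPKM in ND liver. Every HFD library was below every GT and every ND library, but neither difference passed the test over all genes. HFD against ND gave −0.39 ± 0.17 (adjusted p = 0.132, 95% interval −0.77 to −0.01), and GT against HFD gave 0.55 ± 0.17 (adjusted p = 0.0867, 95% interval 0.17 to 0.92). GT differed from ND by 0.16 ± 0.17 (adjusted p = 0.681). Without GT 3, the muscle-marked GT library, the GT against HFD change of F7 was 0.66 and was called (adjusted p = 0.0274). Without both muscle-marked libraries it was 0.70 and was not (adjusted p = 0.0638).

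F11, the factor IX activator of the intrinsic arm, was the only member called in liver. It stood at 23.8, 33.4 and 22.3 FPKM in GT liver, at 16.3, 15.2 and 15.0 FPKM in HFD liver, and at 18.3, 17.8 and 24.3 FPKM in ND liver. The HFD libraries lay below all others. GT against HFD liver gave 0.72 ± 0.18 (adjusted p = 0.0468, 95% interval 0.32 to 1.12), a 1.71-fold difference of the means. This call was close to the threshold and was lost in 13 of 16 repeats, where adjusted p ran from 0.0193 to 0.175. It was lost on leaving out any library but GT 3, and without both muscle-marked libraries (adjusted p = 0.0616). HFD against ND (−0.35 ± 0.18, adjusted p = 0.198) and GT against ND (0.37 ± 0.18, adjusted p = 0.341) did not pass.

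F10 was level in liver, in contrast to fat. It stood at 167, 161 and 138 FPKM in GT liver, at 163, 165.0 and 140 FPKM in HFD liver, and at 159, 175 and 167 FPKM in ND liver, with all diets overlapping. GT differed from HFD by −0.00 ± 0.15 (adjusted p = 0.990, 95% interval −0.33 to 0.32), and HFD from ND by −0.10 ± 0.15 (adjusted p = 0.652). The ratio of F10 to F7 in each library was highest in HFD liver, where F7 was lowest. It averaged 3.63 ± 0.29 in GT liver, 5.38 ± 0.40 in HFD liver and 4.37 ± 0.23 in ND liver (SD, n = 3 each). The ratios of the 3 diets did not overlap, and each pair gave an exact two-sided permutation p of 0.1, the smallest that 3 against 3 libraries allow. F7 itself overlapped between GT and ND liver, so their separation in the ratio did not rest on F7 alone. The muscle-marked GT 3 held less F7 than ND 2, at 36.4 against 42.7 FPKM. Its ratio was still lower, at 3.80 against 4.11, with F10 at 138 against 175 FPKM. In fat F7 exceeded F10, with ratios of 0.227 to 0.343 in GT fat and 0.179 to 0.263 in HFD fat. In ND fat, where both genes were near 0, the ratios of 0.722 to 1.31 rest on values too low to read.

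**Figure D5:**
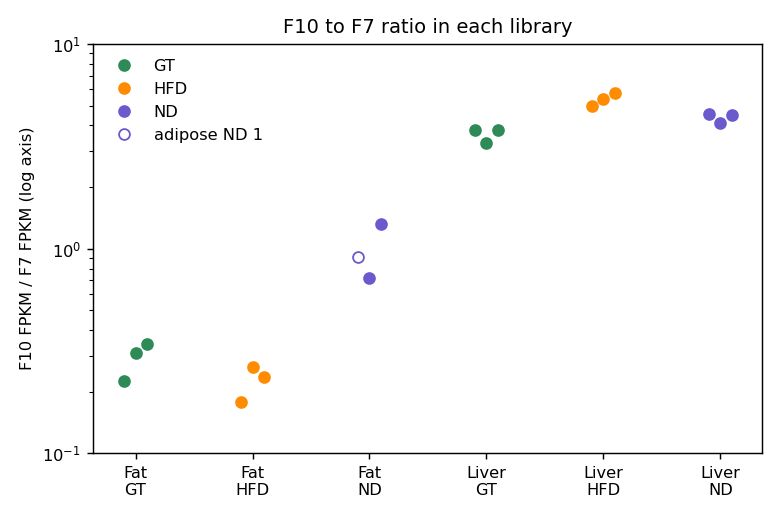
F10 FPKM divided by F7 FPKM in each library on a log axis, for fat and liver with GT, HFD and ND from left to right and fat ND 1 as an open symbol. The ratio is below 0.35 in GT and HFD fat and above 3.2 in every liver library, where HFD is highest and GT lowest without overlap.

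F2, which encodes prothrombin, was the most abundant member in liver and did not pass in any contrast. It stood at 795, 801 and 577 FPKM in GT liver, at 808, 736 and 770.2 FPKM in HFD liver, and at 758, 799 and 768 FPKM in ND liver. GT 3 was low and the other 8 libraries lay within 736 to 808 FPKM. GT against HFD gave −0.11 ± 0.16 (adjusted p = 0.746) and HFD against ND gave −0.01 ± 0.16 (adjusted p = 0.980).

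F5, the cofactor of activated factor X, resembled F7 in being lower in HFD, with overlap. It stood at 77.2, 78.5 and 49.0 FPKM in GT liver, at 50.8, 44.8 and 62.3 FPKM in HFD liver, and at 68.7, 60.5 and 78.2 FPKM in ND liver. GT 3 was again the lowest GT library. GT against HFD gave 0.35 ± 0.21 (adjusted p = 0.348), HFD against ND gave −0.39 ± 0.21 (adjusted p = 0.208), and the GT against HFD change was 0.57 and called without GT 3 (adjusted p = 0.0495).

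F9, the hemophilia B factor, stood at 83.2, 87.4 and 51.2 FPKM in GT liver, at 72.4, 59.3 and 76.3 FPKM in HFD liver, and at 73.4, 57.5 and 84.2 FPKM in ND liver. F12, which starts the contact pathway, stood at 175, 173 and 153 FPKM in GT liver, at 172, 202 and 189 FPKM in HFD liver, and at 196, 193 and 185 FPKM in ND liver. The diets overlapped for F9, and for F12 every GT library lay below every ND library. Neither gene passed: for GT against HFD F9 gave 0.06 ± 0.23 (adjusted p = 0.901) and F12 −0.17 ± 0.14 (adjusted p = 0.507). For GT against ND F12 gave −0.20 ± 0.14 (adjusted p = 0.512), and for HFD against ND F9 gave −0.04 ± 0.23 (adjusted p = 0.922) and F12 −0.03 ± 0.14 (adjusted p = 0.895).

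F3 and Tfpi were low in liver. F3 stood at 3.13, 3.51 and 2.26 FPKM in GT liver, at 2.20, 3.00 and 2.60 FPKM in HFD liver, and at 2.45, 1.41 and 1.01 FPKM in ND liver. GT against ND gave 0.62 ± 0.21 (adjusted p = 0.157) and HFD against ND gave 0.49 ± 0.21 (adjusted p = 0.121), both without passing. Tfpi stood at 2.49, 2.06 and 2.19 FPKM in GT liver, at 3.57, 3.49 and 3.37 FPKM in HFD liver, and at 2.21, 3.30 and 2.52 FPKM in ND liver. The HFD libraries of Tfpi lay above all GT and ND libraries, opposite in direction to F7 and F11, and GT against HFD gave −0.47 ± 0.14 (adjusted p = 0.0842) while HFD against ND gave 0.29 ± 0.14 (adjusted p = 0.171).

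In liver 9 of the 10 members were tested, F13a1 being too low. None of the 9 was called in HFD against ND, where 18.6% of 10670 genes were, and 2 of the 9, F7 and F3, had an unadjusted p under 0.05, as did 3758 of the 10670 genes. F11 was the 1 of 9 called in GT against HFD, where 5.36% of genes were called. There F11, Tfpi and F7 had an unadjusted p under 0.05, as did 2502 of the 10670 genes. None was called in GT against ND, where 2.6% of genes were, and F3 had an unadjusted p under 0.05, as did 1765 genes. The share of all genes whose liver libraries did not overlap between diets is not given here. Such separations of single members are therefore descriptions only. The balance of calls over all genes depended on scaling. Of the genes called in HFD against ND liver 64.0% were higher in HFD, and 41.6% when FPKM totals were made equal, where the median change of all genes was −0.20, against −0.02 without that scaling. F7 then gave −0.60 ± 0.21 (adjusted p = 0.0755). In HFD against ND fat with all 9 libraries the same scaling gave a median of 0.41, against 0.13 without it, and F7 differed by 5.14 and F10 by 3.09. For GT against HFD liver the share higher in GT was 21.3%, and 32.7% at equal totals, and for GT against ND fat without ND 1 it was 70.4%, and 82.2% at equal totals. Macrophage markers summed to 33.2 to 46.2 FPKM in GT liver, 50.4 to 74.7 FPKM in HFD liver and 48.8 to 63.8 FPKM in ND liver, and 3 of 8 tested fell in GT against HFD; their part in the liver results was not tested.

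Whether the change from HFD to the extract differed between fat and liver was fitted for the 4 members kept in both tissues. F10, F3 and Tfpi were tested, and none of them was called in limma. The difference, fat minus liver, was −0.34 ± 0.36 for F10 (adjusted p = 0.994), −0.17 for F3 (adjusted p = 1.0) and 0.31 for Tfpi (adjusted p = 0.998). For F7 it was −1.29 ± 0.51, given as a description. Of 10042 genes 0.00996%, a single gene, was called. That gene, named after its values were seen, was the hormone gene Fgf21 (3.02 ± 0.33, adjusted p = 0.0014).

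The wider clotting system was read from 40 other genes of clotting and fibrinolysis, 39 of them in the table. In HFD against ND fat 21 were tested without ND 1, of which 8 rose and 0 fell, with a list median of 0.42 beside 0.02 for all genes. Of all 12859 genes 27.4% were called, 2290 of them higher in HFD. Those of smallest p were Plau (1.86 ± 0.23, adjusted p = 0.00144), the urokinase that activates plasminogen, its receptor Plaur (2.45 ± 0.30, adjusted p = 0.00148), the protease inhibitor Tfpi2 (1.16 ± 0.16, adjusted p = 0.00209) and the thrombin receptor F2r (1.24 ± 0.20, adjusted p = 0.00356). By role, 3 of 6 tested genes of fibrinolysis rose, 3 of 5 anticoagulants, 1 of 4 cofactors and carriers and 1 of 3 receptors. Fibrinogen and the contact system had no gene above the filter in fat. With ND 1 included, 22 were tested and 2 rose, Plaur and Plau.

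For GT against ND fat without ND 1, 6 of 21 rose and 0 fell, where 10.7% of all genes were called, with a list median of 0.44 beside −0.05 for all genes. Among the 6 were Tfpi2 (1.10 ± 0.16, adjusted p = 0.0104), Plaur (1.88 ± 0.30, adjusted p = 0.0116), the C1 and kallikrein inhibitor Serping1 (0.78 ± 0.13, adjusted p = 0.0124) and Plau (1.14 ± 0.23, adjusted p = 0.0207). With ND 1 0 of 22 passed in limma, and 8 had an unadjusted p under 0.05. Among the 6 high-fat libraries Plaur and Plau were lowest in GT 3. Plaur stood at 23.5, 20.2 and 10.8 FPKM in GT fat, at 28.9, 20.9 and 29.8 FPKM in HFD fat, and at 0.283, 4.08 and 3.88 FPKM in ND fat. Plau stood at 101, 91.5 and 58.4 FPKM in GT fat, at 126, 128 and 153 FPKM in HFD fat, and at 7.30, 39.7 and 33.4 FPKM in ND fat, so that every GT library lay between the ND and the HFD libraries. In GT against HFD fat 0 of the 22 passed, with 0 at an unadjusted p under 0.05, and without ND 1 0 of the 21 passed, with 5 at an unadjusted p under 0.05, as had 2908 of 12859 genes.

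In liver 28 of the wider genes were tested. For HFD against ND, 5 rose and 1 fell, where 18.6% of all genes were called, with a list median of −0.10 beside −0.02 for all genes. Among those that rose were the plasminogen receptor subunits Anxa2 (2.17 ± 0.31, adjusted p = 0.0024) and S100a10 (1.06 ± 0.18, adjusted p = 0.00531) and also Tfpi2 (0.65 ± 0.16, adjusted p = 0.0206). For GT against HFD, where 5.36% of all genes were called, 0 rose and 2 fell, S100a10 (−1.15 ± 0.18, adjusted p = 0.00966) and Anxa2 (−1.97 ± 0.31, adjusted p = 0.00974). None of the 3 fibrinogen genes changed by the test, and for GT against ND 0 of the 28 passed, with 1 at an unadjusted p under 0.05. Anxa2 stood at 15.5, 8.13 and 6.52 FPKM in GT liver, at 29.6, 36.1 and 58.7 FPKM in HFD liver, and at 7.67, 10.1 and 6.78 FPKM in ND liver, so that HFD stood alone.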

How the data were processed

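PolyA RNA of epididymal fat and liver was extracted with TRIZOL and made into libraries with an Illumina TruSeq kit, per the labels' protocols. The deposited table gives FPKM per gene, made by the authors, for 18 libraries, and 0 columns belonged to no sample. STAR 2.4.0, Cufflinks 2.1.1 and CASAVA 1.8.2 are named, with no role, per the submitters' processing notes. The genome build and strand setting of the counting are not given in the sources used here, and neither are read numbers, so depth is unknown and no counting interval is given. Of the gene identifiers 22671 matched a symbol and 803 did not. RefSeq promoters were found for 10 of 10 members.

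Groups were taken from the labels. A gene was tested in a tissue where at least 3 libraries reached 1 FPKM. Values were tested as log2(FPKM + 1) with limma 3.58.1 in R 4.3.3, fitting 1 mean for each diet, empirical Bayes with trend and robust options, and Benjamini-Hochberg adjustment at 0.05 over all genes of the fit, two-sided. The fit was tested on simulated data in which 100 genes were changed in GT by 1 on the log2 scale and another 100 by 2. At a log2 change of 1 it recovered 1% of them in fat with all libraries, 68% in fat without ND 1 and 64% in liver. At a log2 change of 2 it recovered 35%, 93% and 94%. The fit of all fat libraries could therefore miss most changes of these sizes. In the same contrast, GT against HFD, unchanged genes were also called. They numbered 1 in fat with all libraries, 16 in fat without ND 1 and 7 in liver. In HFD against ND of the same simulated data, where no gene was changed, 0 calls were made. The members, gene lists, markers and tests were chosen with earlier results of these data known. All members were named, up to 4 called genes of smallest p from the wider list, and the 5 genes most like F7, apart from 2 genes that are not reported here. Repeats used equal FPKM totals, an added 0.1, a filter at 5 FPKM or none, the replicate number as a block, only the diets compared, and each library left out. Tables used pandas 2.3.3 and NumPy 2.4.6 (Python 3.11.15), and plots used matplotlib 3.10.9.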

Additional observations from a re-analysis of the deposited data

Results flagged for a closer look

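F7 differed in opposite directions between HFD and ND in the 2 tissues. In fat every HFD library lay above every ND library, with a log2 change of 5.03, and in liver every HFD library lay below every ND library, with a log2 change of −0.39 that did not pass the test (limma, adjusted p = 0.132). The changes differed by 5.42 on the log2(FPKM + 1) scale. This difference was not tested, since F7 was selected on its fat values. No group had 4 or more libraries, so single libraries were not checked for outlying values.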

How the results depend on the processing

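The number of libraries limits these results: with 3 per group, leaving out 1 moves most counts, and depth is unknown because read numbers were not used here. Of 906 recomputed changes of single genes 832 kept their direction and side of the threshold, 41 turned sign without being called, 29 lost a call, 4 gained one and 0 turned sign while called. Leaving out muscle-marked livers and repeating the fit of 8 fat libraries were chosen after seeing the data. A low count after a library is left out also reflects fewer samples; other causes were not tested.

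Leaving out 1 library gave these ranges of genes called in fat: 59 to 3527 for HFD against ND (777 with all), 0 to 218 for GT against HFD (0 with all) and 0 to 2544 for GT against ND (88 with all, members 0 to 2). The highest was without ND 1 for the first 2 and without ND 2 for GT against ND (1370 without ND 1). From the 8 libraries without ND 1 they were 2048 to 3953 (3527 with all 8), 0 to 866 (218) and 145 to 2632 (1370). In liver they were 460 to 3367 for HFD against ND (1980 with all), 43 to 1240 for GT against HFD (572, members 0 to 3) and 49 to 428 for GT against ND (277). For the tissue difference they were 1 to 386.

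Fitting only the compared diets called 317 genes in fat for HFD against ND, 560 for GT against HFD and 0 for GT against ND (0 members), and in liver 173 for GT against HFD (0 members) and 99 for GT against ND. With no filter 22 genes were called for GT against ND fat (1 member, F7), 262 for GT against HFD liver (0 members), 143 for GT against ND liver and 3 for the tissue difference. A filter at 5 FPKM called 0 for the tissue difference. Equal totals called 208 for GT against HFD liver (0 members), 142 for GT against ND liver, 2 for the tissue difference and 90 for GT against HFD fat without ND 1, where an added 0.1 called 121. Without both muscle-marked livers 242 were called for GT against HFD (0 members) and 438 for GT against ND.

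With the replicate block, 337 genes were called for HFD against ND fat, 3 for GT against ND fat (0 members), 306 for GT against HFD liver (0 members) and 141 for GT against ND liver. Without ND 1 the block called 2279, 5 and 157 genes for HFD against ND, GT against HFD and GT against ND fat. Same-numbered libraries correlated at −0.07 to 0.64 in fat, over 0.1 in 6 of 9 pairs. In liver they correlated at −0.30 to 0.42, over 0.1 in 4 of 9. The numbers were therefore not taken to pair the samples in general. For GT against ND fat, however, all 3 pairs lay over 0.1 (0.12 to 0.26). The 2 highest correlations were between HFD and ND fat, whose pairs stood at 0.64, 0.48 and 0.095.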

Other observations

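Of the 12 listed anticoagulant genes, 3 are described here, chosen after their values were seen. Thbd, the endothelial thrombin receptor that activates protein C, stood at 20.7, 26.6 and 36.7 FPKM in GT fat, at 23.3, 23.7 and 24.5 FPKM in HFD fat, and at 1.73, 42.6 and 34.1 FPKM in ND fat, and was at most 1.39 FPKM in liver. Pros1, which encodes the cofactor protein S, was found in both tissues. It stood at 58.4, 54.0 and 45.4 FPKM in GT fat, at 64.8, 62.1 and 68.9 FPKM in HFD fat, and at 2.58, 43.3 and 30.8 FPKM in ND fat. In HFD against ND fat without ND 1 Pros1 rose by 0.82 ± 0.17 (limma, adjusted p = 0.00995), and with ND 1 the change was 1.95 ± 0.83 and did not pass (adjusted p = 0.238). Antithrombin (Serpinc1) reached at most 0.203 FPKM in fat and stood between 688 and 917 FPKM in all 9 liver libraries.

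Over the 9 liver libraries the genes most like F7 were Shmt1 (Pearson 0.968), Gpld1 (0.922), Gpcpd1 (0.909), Igfbp5 (0.899) and Slc43a1 (0.888), of 10669 genes. F11 ranked 57 at 0.801, F10 ranked 851 at 0.54 and Tfpi stood at −0.59. None of the leading genes was among the 5 most like F7 in fat. These correlations describe 9 libraries that share their diets and are given with no p.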
